A study of Mus musculus with 167 samples.

Results

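Livers of wild type mice and of mice lacking both CAR and PXR were compared while the animals of both genotypes were drinking phenobarbital. The arrays were chosen by treatment and genotype: all phenobarbital arrays of the wild type and of the CAR/PXR knockout on dosing days 1, 7, 14, 28 and 91, which came to 48 of the 167 arrays of the series, 24 of each genotype. The series followed liver gene expression during phenobarbital exposure with Affymetrix mouse arrays, and its humanized mice were not used here. All animals were male C57BL/6 mice from TaconicArtemis, with a stated age of 9 to 11 weeks. The stated age is the same for all dosing days, as for an age at the start. Day and age at sampling then rise together. The treated animals had phenobarbital in the drinking water at 0.05% (weight per volume). The concentration is taken from the general treatment text, where weaker solutions and a different age at the start are mentioned as well; the labels of the single samples state none. On days 1, 7, 14, 28 and 91 there were 5, 4, 5, 5 and 5 treated wild type livers and the same numbers of treated knockout livers. Control animals of the same genotypes, days and sex, without phenobarbital, gave 22 wild type and 22 knockout arrays. They served as the background of the genotype comparison and share no array with it. Both receptors are missing together in the knockout, so the share of either receptor in a difference cannot be told apart. Each array is a separate animal by the labels' animal numbers.

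CAR (gene Nr1i3) and PXR (Nr1i2) are nuclear receptors of hepatocytes that sense drugs and other foreign compounds. Phenobarbital activates CAR without needing to bind it, whereupon CAR enters the nucleus, pairs with RXR and switches on genes of drug oxidation, conjugation and export, with Cyp2b10 the textbook target in the mouse. CAR activation is also known to enlarge the rodent liver and to start a burst of hepatocyte division, and both receptors are known to affect lipid and glucose metabolism.

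Levels are given as log2 expression values after RMA, a standard summary of Affymetrix probe sets, and 1 unit is a doubling. A gap is the wild type level minus the knockout level on that scale, so a positive gap means a higher level in the wild type. Each gene is represented by its probe set with the highest mean over all arrays. A gene was called different when limma's moderated test gave a Benjamini-Hochberg adjusted p under 0.05 over the 12622 genes tested (of 18193 with a probe set). In liver tissue, fewer cells of a type and less RNA per cell cannot be told apart.

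Some features of the animals bear on the results. Animal 4019 (knockout, phenobarbital, day 28) and animal 4024 (knockout, phenobarbital, day 91) gave nearly the same array. Their log2 values differed with an SD of 0.056 and by more than 2-fold in 0 of 2706 genes, whereas the next closest of the 4186 pairs of arrays had an SD of 0.1221. Both were kept as labelled, and counts without them are given where they matter. Nnt, a mitochondrial transhydrogenase gene that is known to differ between C57BL/6 substrains, stood at 10.71 ± 0.13 (SD, n = 24) in treated wild type and 9.53 ± 0.16 (n = 24) in treated knockout livers. Its gap was 1.17 under phenobarbital (adjusted p = 2.2e-29) and 1.32 in controls (3.01e-27), and no Nnt level of the treated genotypes overlapped. For any gap, with the drug or without it, loss of the receptors and other differences between the lines cannot be told apart.

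The knocked-out genes themselves followed the labels in every animal. Nr1i3 lay between 7.74 and 8.87 (median 8.17) in treated wild type livers and between 4.71 and 5.39 (median 4.95) in treated knockout livers, a gap of 3.23 (SE 0.06, adjusted p = 1.9e-40). Nr1i2 lay between 7.10 and 8.02 (median 7.56) in the wild type and between 3.45 and 4.01 (median 3.64) in the knockout, a gap of 3.89 (SE 0.06, adjusted p = 3.6e-43). The treated groups did not overlap for either gene. In controls the gaps were 3.48 for Nr1i3 and 3.95 for Nr1i2. The gap of Nr1i3 was smaller with the drug by 0.25 (adjusted p = 0.0178, but 0.0643 after quantile normalization), and that of Nr1i2 changed by -0.07 (0.657). Next to Nr1i3 on chromosome 1, Tomm40l, a mitochondrial import gene, was also higher in the wild type, by 1.18 with the drug and 1.12 without it. Of the 17 tested genes nearest to Nr1i3, 5 were called higher in the treated wild type and 2 in the treated knockout, where 12.3% and 16.3% of all genes tested were. Of the 14 tested genes nearest to Nr1i2, 2 were called, Hgd (-0.06) and Arhgap31 (-0.17), both higher in the treated knockout.

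Under phenobarbital 3608 genes (28.6%) were called between the genotypes, 1555 (12.3%) higher in the wild type and 2053 (16.3%) higher in the knockout. Most of these gaps were small, with a median size of 0.15. A gap of at least 1.5-fold was found for 128 genes (1.01%), 66 (0.523%) higher in the wild type and 62 (0.491%) higher in the knockout. On the wild type and knockout side, 36 and 11 genes passed 2-fold, and 14 and 1 passed 4-fold, the 1 being Cyp4a14. The wild type counts include the deleted genes Nr1i2 and Nr1i3. Genes above the array's median on as few as 3 of the 167 arrays were tested. When at least 1 in 2 of the compared arrays had to be above, the 1.5-fold split was 51 to 60. The 2-fold and 4-fold counts were not recomputed with that filter. The 24 wild type and 24 knockout levels did not overlap for 32 genes (0.254%), 27 of them (0.214%) higher in the wild type and 5 (0.0396%) higher in the knockout. The 27 included Nr1i2, Nr1i3, its neighbour Tomm40l and Nnt. Drug-metabolising enzymes among the 27 were Cyp2a12, Cyp2b10, Cyp2c29, Cyp2c37, Cyp2c50, Cyp2c54, Cyp2c55, Cyp2c65, Ces2a, Gstm3, Gstt3, Tpmt and Ugt2b34. The others were the carrier Slco1a4, Ccn4, Cpe, Ginm1, Gna14, Nsl1, Pepd, 1700067K01Rik, 4931406C07Rik and Gm10419. Cyp2a12 had much the same gap in both arms, 0.35 with the drug and 0.38 in controls (change -0.02, adjusted p = 0.775 by limma).

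On the single days 940 (day 1, 7.45%), 838 (day 7, 6.64%), 1107 (day 14, 8.77%), 775 (day 28, 6.14%) and 529 genes (day 91, 4.19%) were called. Of these, 608, 393, 359, 332 and 241 were higher in the wild type and 332, 445, 748, 443 and 288 higher in the knockout. The split depended on scaling: after quantile normalization it was 533 to 457, 537 to 460, 532 to 629, 420 to 420 and 329 to 298, so the larger side turned on days 7 and 91. Without wild type animal 2002 day 1 had 603 calls, and without knockout animal 4009 day 7 had 522. On day 1, 3 of 16 tested circadian clock genes were higher in the wild type and 5 in the knockout (all genes 4.82% and 2.63%). On day 7 these counts were 0 and 1, and from day 14 on 0 and 0. Of 18 genes of endoplasmic reticulum chaperones and the unfolded protein response, 6 and 0 were called on day 1. The part of these genes in the other day 1 results was not tested.

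The same comparison in controls called 2301 genes (18.2%), 1180 (9.35%) higher in the wild type and 1121 (8.88%) higher in the knockout. There, 105 genes (0.832%) passed 1.5-fold, 27 higher in the wild type and 78 higher in the knockout. The large gaps were thus shared about evenly between the directions with the drug, whereas in controls most lay on the knockout side. The split with the drug depended on the settings. It was 51 to 60 when only genes above their array's median on at least 1 in 2 of the compared arrays were kept. With the mean of all probe sets of a gene it was 56 to 42. The gap itself differed between the arms for 1655 genes (13.1%), toward the wild type for 703 (5.57%) and toward the knockout for 952 (7.54%).

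The 66 genes higher in treated wild type and the 62 higher in treated knockout livers differed in what their control livers showed. Of the 66, 31 had a called gap of the same direction in controls, 8 had the opposite one and 27 had none. The gap was larger under the drug for 55 of them and smaller for 1, Nr1i3. Of the 62, 52 already had a called gap of the same direction in controls, 1 (Pde5a) had the opposite one and 9 had none. For 43 of the 62 no change of the gap with the drug was called, and for 17 it was larger under the drug.

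**Figure D1:**
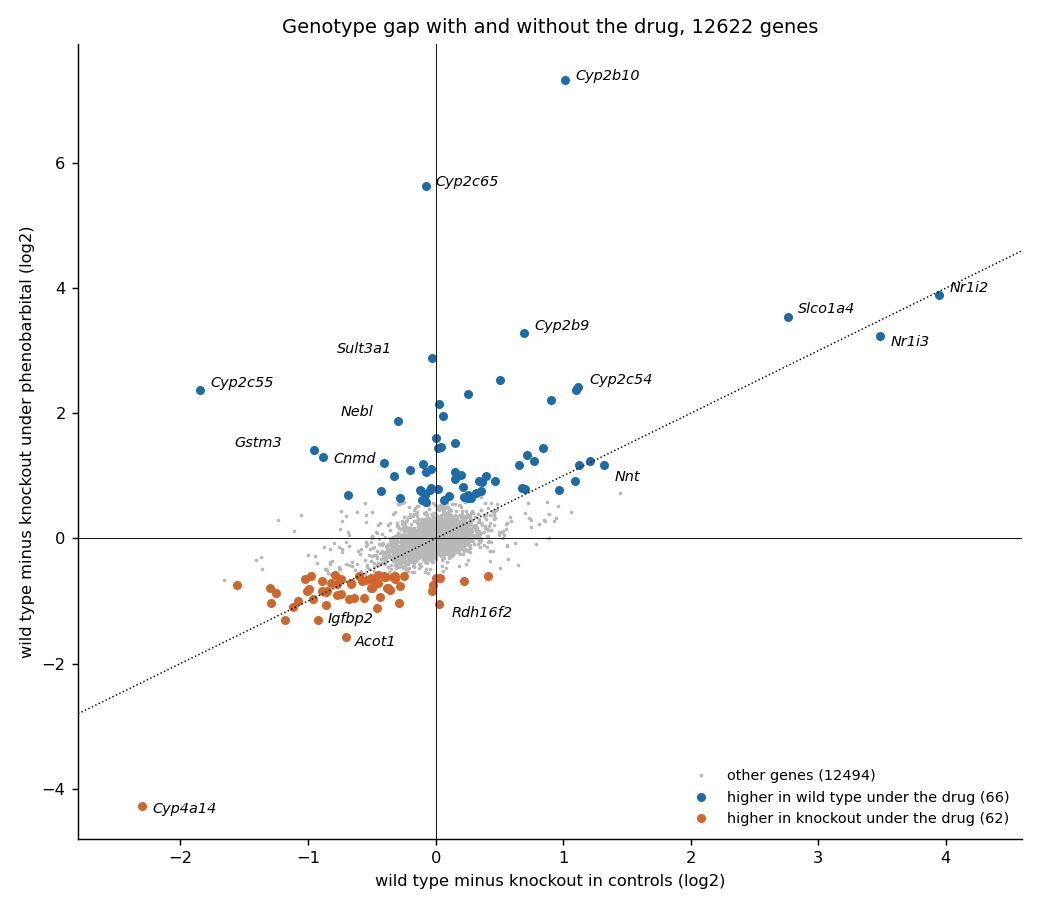
Wild type minus knockout gap in controls (horizontal axis, log2) against the same gap under phenobarbital (vertical axis, log2) for the 12622 genes tested; blue and orange points are the 66 and 62 genes with an adjusted p under 0.05 and a gap of at least 1.5-fold under the drug, grey points are the other 12494 genes, and the dotted line marks equal gaps. Cyp2b10 and Cyp2c65 lie far above the line, Nr1i2 and Nr1i3 lie near it, and Cyp2c55, Gstm3 and Cnmd sit on opposite sides of zero in the 2 arms.

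Cytochromes P450 of the Cyp2b and Cyp2c families carried the widest gaps. Cyp2b10, the classical phenobarbital-inducible P450, lay between 12.53 and 13.30 (median 13.01) in treated wild type and between 5.17 and 6.36 (median 5.62) in treated knockout livers. Every treated wild type liver was thus more than 6 log2 units above every treated knockout liver. The gap of 7.32 (SE 0.07, adjusted p = 5.21e-53) is a 160-fold difference, against 1.01 in controls, where the wild type stood at 6.48 and the knockout at 5.49. It was there from the start: on days 1, 7, 14, 28 and 91 the wild type means were 12.94, 13.14, 13.16, 12.97 and 12.75, and the knockout means 5.61, 5.79, 5.60, 5.62 and 5.74. The other probe sets that carry the Cyp2b10 symbol gave gaps of 9.18 and 9.08.

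Cyp2c65 showed the next largest gap. It lay between 6.98 and 10.17 (median 9.47) in treated wild type and between 3.20 and 3.68 (median 3.45) in treated knockout livers, with no overlap. The gap was 5.63 (SE 0.15, adjusted p = 1.38e-32), or 49.6-fold, and no gap was called in controls (-0.08, adjusted p = 0.311). The wild type means were 7.50, 9.03, 9.72, 9.95 and 9.08 over the 5 days while the knockout stayed between 3.40 and 3.47, and the F test of a gap that differs between days gave an adjusted p of 8.07e-07.

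Cyp2c54, Cyp2c37 and Cyp2c50 are close relatives on chromosome 19 whose products oxidise fatty acids and drugs. Cyp2c54 lay between 13.61 and 14.08 (median 13.94) in treated wild type and between 11.09 and 11.94 (median 11.60) in treated knockout livers, a gap of 2.36 (SE 0.04, adjusted p = 1.75e-39). Cyp2c37 had a gap of 2.21 (SE 0.06, 1.62e-33) and Cyp2c50 one of 1.44 (SE 0.03, 3.83e-39). For all 3 the treated groups did not overlap, and the gap was called in controls too, at 1.10, 0.91 and 0.84. The gap under the drug was larger than in controls by 1.28, 1.32 and 0.62.

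Promoters of 5 genes are shown, those of Cyp2b10, Cyp2b9 and Cyp2b13 because these close relatives reached their gaps on different days, and those of Cyp2c37 and Cyp2c50 because both had a gap in either arm. RefSeq's table matched 5 of these 6 Cyp2b and Cyp2c genes, the other being Cyp2c54. Each sequence runs from 250 bases before to 50 bases after the start site on the plus strand of GRCm38.p6 and was taken from RefSeq. It lies at chr7:25897408-25897707 for Cyp2b10, chr7:26173159-26173458 for Cyp2b9, chr7:26061245-26061544 for Cyp2b13, chr19:39992174-39992473 for Cyp2c37 and chr19:40089429-40089728 for Cyp2c50. Capitals mark AGGTCA or AGTTCA on either strand, the letters of a core nuclear receptor binding motif; on the minus strand AGTTCA reads TGAACT.
Cyp2b10: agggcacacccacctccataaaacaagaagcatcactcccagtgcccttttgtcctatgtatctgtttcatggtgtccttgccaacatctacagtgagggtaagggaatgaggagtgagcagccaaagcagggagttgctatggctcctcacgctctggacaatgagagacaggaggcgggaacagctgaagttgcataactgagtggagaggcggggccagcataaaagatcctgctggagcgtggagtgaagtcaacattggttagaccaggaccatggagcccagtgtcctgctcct
Cyp2b9: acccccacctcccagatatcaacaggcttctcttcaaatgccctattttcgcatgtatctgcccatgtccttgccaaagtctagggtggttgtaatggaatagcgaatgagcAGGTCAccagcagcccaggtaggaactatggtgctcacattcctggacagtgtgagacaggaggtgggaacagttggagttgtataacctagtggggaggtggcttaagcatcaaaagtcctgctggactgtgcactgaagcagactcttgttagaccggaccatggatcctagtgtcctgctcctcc
Cyp2b13: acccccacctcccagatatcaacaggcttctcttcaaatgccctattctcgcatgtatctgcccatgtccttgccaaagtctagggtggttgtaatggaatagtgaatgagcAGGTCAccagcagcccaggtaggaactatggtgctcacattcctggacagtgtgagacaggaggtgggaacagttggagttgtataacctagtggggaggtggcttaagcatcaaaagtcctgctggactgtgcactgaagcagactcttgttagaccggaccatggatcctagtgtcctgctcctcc
Cyp2c37: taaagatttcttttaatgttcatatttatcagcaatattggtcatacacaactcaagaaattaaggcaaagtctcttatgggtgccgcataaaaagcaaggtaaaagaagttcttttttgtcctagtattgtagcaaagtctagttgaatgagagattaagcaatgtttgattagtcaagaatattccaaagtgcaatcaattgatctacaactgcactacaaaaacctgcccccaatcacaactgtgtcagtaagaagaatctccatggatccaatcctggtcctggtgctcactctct
Cyp2c50: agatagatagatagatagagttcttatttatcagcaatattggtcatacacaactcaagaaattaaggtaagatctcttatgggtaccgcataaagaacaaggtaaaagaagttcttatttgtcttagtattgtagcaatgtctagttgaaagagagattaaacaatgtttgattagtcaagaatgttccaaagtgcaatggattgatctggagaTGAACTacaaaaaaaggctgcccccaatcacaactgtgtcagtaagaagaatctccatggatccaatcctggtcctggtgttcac
AGGTCA was found in the windows of Cyp2b9 and Cyp2b13, at position -138 from the start in both, and AGTTCA in that of Cyp2c50, at position -35 on the minus strand. No match of either was found in the windows of Cyp2b10 and Cyp2c37. Sequence outside the windows was not searched, so sites further from the start would be missed. Over 32851 RefSeq promoter windows of the same length AGGTCA stood in 16.3% and AGTTCA in 14.0%, and one or the other in 27.7%, so a match describes these letters only. In a global alignment the Cyp2b9 and Cyp2b13 windows were alike in 298 of 300 bases, Cyp2b10 was alike with each of them in 223 of 300, and Cyp2c37 with Cyp2c50 in 264 of 300. Close relatives can share probes, but no transcript or probe sequences were compared. The values of Cyp2b10, Cyp2b9, Cyp2b13 and the Cyp2c genes are therefore uncertain as to which copy they measure.

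Cyp2c55 had gaps of opposite sign in the arms. It lay between 11.76 and 13.09 (median 12.84) in treated wild type and between 9.85 and 10.57 (median 10.34) in treated knockout livers, which did not overlap. The gap was 2.37 under the drug (SE 0.07, adjusted p = 7.01e-32) and -1.85 in controls, where the wild type stood at 8.33 and the knockout at 10.19. The change of the gap between the arms was 4.24 (adjusted p = 1.27e-47).

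Of the 30 tested genes of phase I oxidation, 19 were higher in the treated wild type and 4 in the treated knockout, where 12.3% and 16.3% of all genes tested were. The list's median gap was 0.22 against -0.01 over all genes tested. The treated genotypes did not overlap for 7 of the 30 (0.214% over all genes), all higher in the wild type: Cyp2b10, Cyp2c65, Cyp2c54, Cyp2c37, Cyp2c55, Cyp2c50 and Cyp2c29. In controls 8 were higher in the wild type and 10 in the knockout, against 9.35% and 8.88% of all genes. The 4 on the knockout side, named after their values were seen, were Cyp2c38 (-0.95), Cyp2c68 (-0.82), Cyp3a25 (-0.16) and Cyp2j5 (-0.13), and each was also higher in the knockout in controls. Cyp3a11, the textbook PXR target, stood near the top of the scale in both genotypes, at 14.41 ± 0.04 in treated wild type and 14.34 ± 0.03 in treated knockout livers (n = 24 each). Its gap of 0.07 was called (adjusted p = 0.000165). Cyp1a2, which oxidises caffeine and aromatic amines, had a gap of 0.43 (adjusted p = 5.68e-06); 1 treated knockout animal of day 91 stood at 13.87, above every treated wild type animal, whose highest was 13.25.

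**Figure D2:**
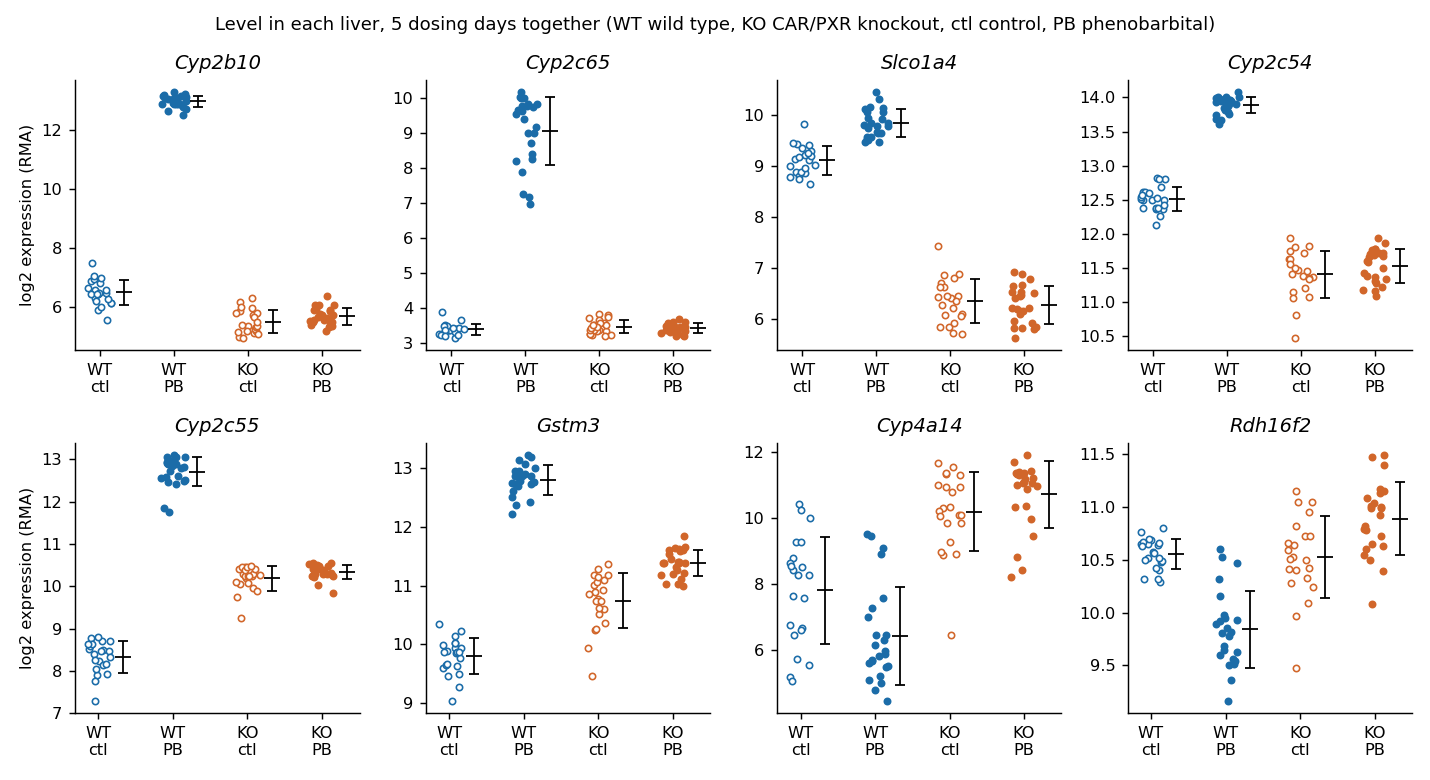
Log2 expression (RMA) of 8 genes in each liver, over the 5 dosing days together; open points are controls (n = 22 per genotype), filled points are phenobarbital (n = 24 per genotype), blue is wild type and orange is knockout, and the bars give mean ± SD. The treated genotypes do not overlap for Cyp2b10, Cyp2c65, Slco1a4, Cyp2c54, Cyp2c55 and Gstm3, they overlap for Cyp4a14 and Rdh16f2, and in controls Cyp2c55 and Gstm3 are higher in the knockout.

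Among conjugating enzymes, the glutathione transferases Gstm3 and Gstm2 had gaps of opposite sign in the arms. Gstm3 lay between 12.22 and 13.22 (median 12.81) in treated wild type and between 11.00 and 11.84 (median 11.39) in treated knockout livers, without overlap. The gap was 1.42 under the drug (SE 0.07, adjusted p = 5.98e-23) and -0.96 in controls, with wild type and knockout controls at 9.80 and 10.74. Treated knockout livers were above knockout controls too, by 0.62 (adjusted p = 2.04e-07). Gstm2 had gaps of 0.69 and -0.69 (adjusted p = 1.61e-11 and 1.27e-07). Gstt3, of the theta class, lay between 10.02 and 11.15 in treated wild type and between 8.69 and 9.96 in treated knockout livers, a gap of 1.10 (5.39e-18) with none called in controls (-0.20, 0.189). Of the 19 tested transferases 8 were higher in the treated wild type and 5 in the treated knockout (all genes 12.3% and 16.3%). In controls 1 was higher in the wild type and 10 in the knockout (all genes 9.35% and 8.88%). The list's median gap was -0.01 with the drug, and 0.02 after quantile normalization, so it has no settled sign.

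Glucuronidation and sulfation genes were mostly on the wild type side, with 12 of 21 tested members higher in the treated wild type, 3 higher in the treated knockout (all genes 12.3% and 16.3%) and a median gap of 0.16. Controls had 1 and 5 (all genes 9.35% and 8.88%). Ugt2b34, a glucuronosyltransferase, did not overlap between the treated genotypes (13.09 to 13.62 against 12.59 to 12.89) and had a gap of 0.58 (SE 0.03, adjusted p = 5.48e-21), against -0.07 in controls (0.0738). Sult1e1, the oestrogen sulfotransferase, had a gap of 1.45 (SE 0.19, 2.99e-08) from wild type levels that spread between 3.48 and 7.16 and knockout levels between 3.10 and 3.64. Tpmt, which methylates thiopurine drugs, was 9.60 ± 0.10 against 8.79 ± 0.22 (n = 24 each), a gap of 0.82 (1.57e-21) without overlap.

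The carboxylesterase Ces2a lay between 12.11 and 12.87 (median 12.72) in treated wild type and between 11.57 and 12.05 (median 11.86) in treated knockout livers. The gap of 0.78 (SE 0.04, adjusted p = 2.88e-21) had no counterpart in controls (-0.05, 0.356). Hydrolases and carbonyl-metabolising enzymes as a list split evenly, 7 of 21 higher in the treated wild type and 8 in the treated knockout (all genes 12.3% and 16.3%). In controls 1 was higher in the wild type and 12 in the knockout (all genes 9.35% and 8.88%).

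Among transporters 8 of 19 tested genes were higher in the treated wild type and 4 in the treated knockout (all genes 12.3% and 16.3%), with a median gap of -0.04. Slco1a4, an uptake carrier for bile acids and drugs, lay between 9.46 and 10.44 (median 9.79) in treated wild type and between 5.64 and 6.92 (median 6.22) in treated knockout livers. The gap of 3.54 (SE 0.09, adjusted p = 2.65e-33), or 11.7-fold, stood beside 2.76 in controls and was larger with the drug by 0.82 (2.35e-06). Abcc4, an export pump for conjugates, had no called gap on day 1 (-0.06, adjusted p = 0.851), when the 5 wild type livers were at 5.58, 5.52, 5.55, 5.58 and 5.88 and the 5 knockout livers at 5.97, 5.66, 5.72, 5.63 and 5.44. On day 91 the wild type livers were at 8.29, 8.70, 8.26, 8.08 and 8.51 and the knockout livers at 6.32, 6.17, 6.03, 5.83 and 6.06. The groups overlapped on day 1 and were far apart on day 91, and the change of the gap was 2.35 (adjusted p = 1.59e-11). Slc16a5, a monocarboxylate carrier, was higher in the knockout with the drug (-0.95) and in controls (-0.56).

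Cyp2b9, Cyp2b13 and Sult3a1 gained their gap over weeks. For Cyp2b10 no change between days was called (F test, adjusted p = 0.47; day 91 minus day 1 gap -0.33, SE 0.20). The gap differed between the 5 days for 144 genes (1.14%) by the F test, and between day 91 and day 1 for 226 genes (1.79%), toward the wild type for 88 (0.697%) and toward the knockout for 138 (1.09%). Without animals 4019 and 4024 the last test called 141 genes, and without single animals between 127 (wild type animal 2023 of day 91) and 326 (wild type animal 2005 of day 1), so the number is loosely fixed. After quantile normalization 124 genes lay toward the wild type and 99 toward the knockout.

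On day 1 Cyp2b9 was at 4.85, 4.57, 5.56, 4.66 and 4.58 in the wild type and at 3.82, 3.95, 3.37, 3.68 and 3.62 in the knockout. On day 91 it was at 10.28, 10.29, 10.29, 9.82 and 9.93 in the wild type and at 3.92, 5.22, 4.82, 3.84 and 5.28 in the knockout. The genotypes did not overlap on either day, and the gap grew from 1.16 (adjusted p = 0.0799) to 5.51. Wild type controls of day 91 also stood higher, at 6.76 ± 0.67 (SD, n = 4), than those of the earlier days, whose means were 3.76 to 4.01.

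Cyp2b13, whose product is closely related to that of Cyp2b9, had no called gap on day 1. Its wild type livers were at 4.97, 5.11, 4.63, 4.80 and 4.47 on day 1, on both sides of the knockout livers at 4.76, 4.81, 4.89, 4.72 and 4.68. On day 91 they were at 10.06, 9.79, 9.82, 9.44 and 8.96 against 4.71, 4.61, 4.97, 4.98 and 4.81. The 5 daily gaps were 0.03, 0.50, 0.95, 3.24 and 4.80.

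Sult3a1, a sulfotransferase that is expressed mainly in female mouse liver, went the same way. Its wild type means on the 5 days were 3.31, 5.69, 5.10, 7.39 and 8.21, and its knockout means stayed between 2.97 and 3.19. The gap grew by 4.87 between day 1 and day 91 (adjusted p = 7.36e-11), against 4.77 for Cyp2b13 and 4.35 for Cyp2b9. Nebl, which encodes a protein of the actin cytoskeleton, had wild type means of 4.48, 5.87, 6.51, 7.54 and 7.37 against 4.25, 4.13, 4.55, 4.33 and 5.16 in the knockout, a gap over all days of 1.87 (1.62e-11) against -0.29 in controls.

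**Figure D3:**
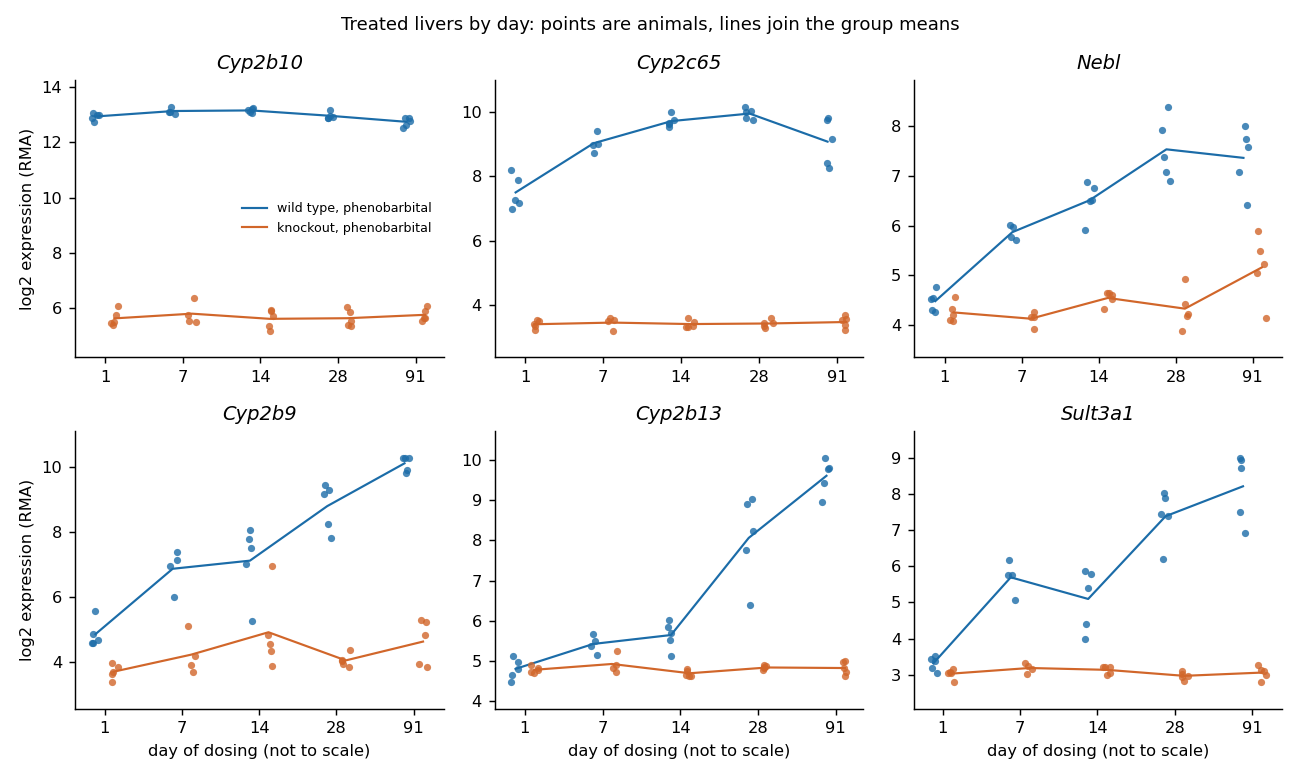
Log2 expression (RMA) of 6 genes in treated livers on each dosing day; points are animals (4 or 5 per group), lines join the group means, blue is wild type and orange is knockout, and days are not drawn to scale. Cyp2b10 is at its full gap on day 1, while Cyp2b9, Cyp2b13 and Sult3a1 part from the knockout over weeks, to wild type means of 10.12, 9.62 and 8.21 on day 91.

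Among the maternally expressed long RNAs of the imprinted Dlk1-Dio3 region, Meg3 also parted slowly. All 3 tested members (Meg3, Rian and Mirg) were higher in the treated wild type (all genes 12.3%), with a median gap of 1.11, but Mirg by only 0.12. In controls 1 was higher in the wild type and 0 in the knockout (all genes 9.35% and 8.88%). The gap was larger with the drug for 2 of the 3 (all genes 5.57%). On the single days 0, 0, 2, 3 and 2 of the 3 were called, where 4.82%, 3.11%, 2.84%, 2.63% and 1.91% of all genes were called higher in the wild type. Meg3 was at 6.93, 7.06, 6.79, 7.09 and 7.11 in the wild type and 6.96, 7.19, 6.97, 7.14 and 7.11 in the knockout on day 1. On day 28 it was at 10.20, 9.73, 9.46, 10.13 and 10.23 against 7.03, 7.30, 7.21, 7.27 and 7.38. The genotypes overlapped on day 1 and lay over 2 log2 units apart on day 28, and the gap grew by 2.70 from day 1 to day 91. Of the 11 probe sets with the Meg3 symbol, the one used had a gap of 1.52 and 4 others gave between 0.90 and 1.67, whereas the other 6 lay between -0.03 and 0.38. Rian, of the same region, had a gap of 1.11 (adjusted p = 3.18e-08), with -0.04 in controls (0.727).

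Many genes of DNA replication were higher in treated wild type livers early on. Of 25 tested S phase genes, 15 were called higher in the treated wild type and 0 in the treated knockout over all days (all genes 12.3% and 16.3%), with a median gap of 0.16. In controls there were 4 and 1 (all genes 9.35% and 8.88%), with a median gap of 0.07. At an unadjusted p under 0.05 by limma, controls had 11 higher in the wild type and 2 in the knockout. With the drug these counts over all days were 16 and 0. By limma on the single days 12, 7, 1, 1 and 0 of the 25 were higher in the wild type on days 1, 7, 14, 28 and 91 (all genes 4.82%, 3.11%, 2.84%, 2.63% and 1.91%), and at an unadjusted p under 0.05 18, 14, 1, 3 and 7. At that level 0 of the 25 were higher in the knockout over all days. Without wild type animal 2004 of day 1, which had the highest mean of these genes and also the highest pancreas acinar markers, 10 of the 25 were called over all days; the part of those markers in the result was not tested. Mcm5, a subunit of the replicative helicase, was at 7.69, 8.04, 7.53, 8.75 and 6.72 in the wild type on day 1 and at 6.65, 6.44, 6.35, 6.27 and 6.38 in the knockout. Every wild type liver lay above every knockout liver, and the gap was 1.33 (adjusted p = 0.000273). On day 7 the gap was 1.06 (0.0119; no longer called without knockout animal 4009 or wild type animal 2007), and none was called later.

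Genes of G2/M and mitosis had 11 of 14 tested members higher in the treated wild type and 0 higher in the treated knockout (all genes 12.3% and 16.3%), with a median gap of 0.22 against 0.05 in controls. On the single days 3, 7, 0, 1 and 0 of the 14 were called by limma (all genes 4.82% on day 1 to 1.91% on day 91), and 8, 12, 0, 3 and 0 at an unadjusted p under 0.05. Many of these genes are dim. With a filter that keeps only genes above their array's median on at least 1 in 2 of the arrays, 4 were called higher in the treated wild type. Mki67, a marker of dividing cells, was at 5.44, 5.66, 6.62 and 5.30 in the wild type on day 7 and at 4.73, 4.33, 4.87 and 4.67 in the knockout. The groups did not overlap and the gap was 1.11 (adjusted p = 0.00963, not called without wild type animal 2008). On day 1 a single wild type animal, 2004, stood at 6.99 while the others lay between 4.50 and 5.71. Ect2, which acts in the last step of cell division, had a gap of 0.56 (0.000172) over all days with the drug and -0.56 in controls.

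Ccnd1, the cyclin that drives entry into the cell cycle, had gaps of opposite sign on early and late days. On day 1 the wild type livers were at 8.91, 9.01, 8.91, 8.98 and 8.95, all above the knockout livers at 8.44, 8.32, 8.02, 7.70 and 7.99. The daily gaps were 0.86 (adjusted p = 1.84e-05), -0.14, -0.48 (0.0166), -0.63 and -0.49, and the F test gave 3.43e-06. On day 28 all wild type livers, at 7.73, 7.89, 7.95, 8.09 and 7.86, lay below all knockout livers, at 8.30, 8.42, 9.05, 8.32 and 8.56. The calls of days 14 and 91 were lost under some settings. Over all days together no gap was called for Ccnd1 (-0.18, 0.195). Gadd45b, a stress-induced gene known as a CAR target, lay between 6.07 and 7.45 in treated wild type and between 5.33 and 6.10 in treated knockout livers, a gap of 1.06 (1.39e-15) with none called in controls (-0.07, 0.313). Of its 3 probe sets 2 gave gaps of 1.07 and 1.00 and a dim one 0.07.

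**Figure D4:**
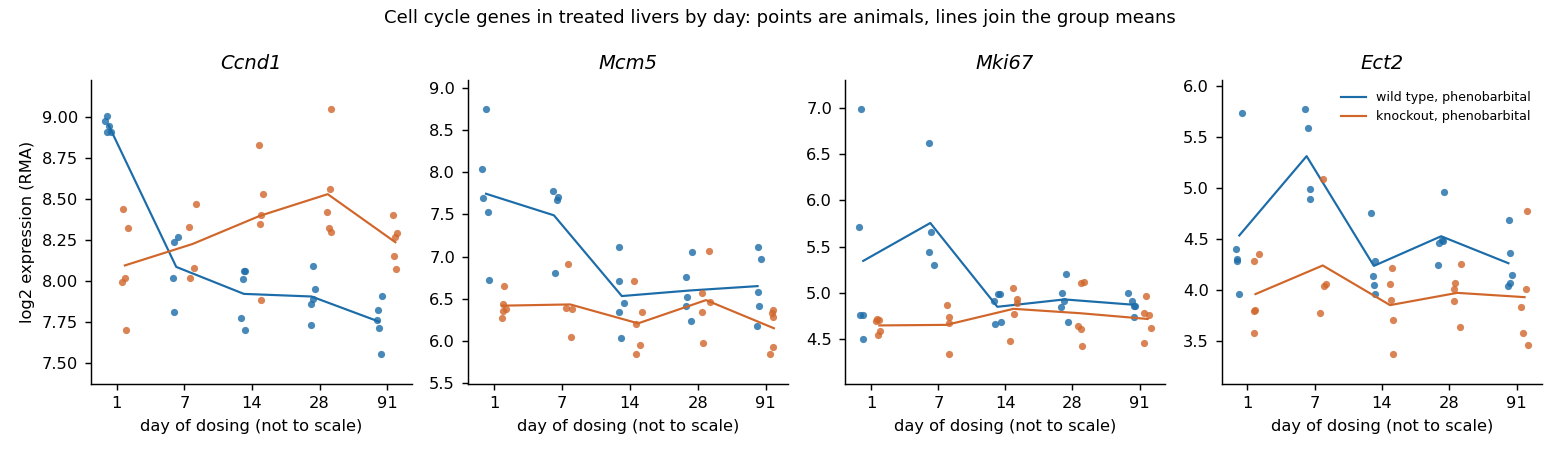
Log2 expression (RMA) of Ccnd1, Mcm5, Mki67 and Ect2 in treated livers on each dosing day; points are animals (4 or 5 per group), lines join group means, blue is wild type and orange is knockout, and days are not to scale. Ccnd1 starts above the knockout at a wild type mean of 8.95 and its mean is below the knockout's from day 7 on, and Mcm5 is apart on days 1 and 7.

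On the knockout side, Cyp4a14 stood alone in size. This fatty acid hydroxylase, the textbook PPAR alpha target, lay between 4.46 and 9.53 (median 5.94) in treated wild type and between 8.22 and 11.90 (median 11.09) in treated knockout livers, so the genotypes overlapped at their edges. The gap was -4.28 (SE 0.32, adjusted p = 5.86e-15), or 19.4-fold, against -2.30 in controls, and it was wider with the drug by 2.01 (change of -2.01, adjusted p = 0.000859). On the 5 days it was -2.23, -5.07, -5.66, -5.43 and -3.17.

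Acot1, an acyl-CoA thioesterase of fatty acid breakdown, lay between 6.39 and 8.27 in treated wild type and between 7.99 and 9.36 in treated knockout livers, a gap of -1.58 (SE 0.12, adjusted p = 2.22e-15) against -0.70 in controls. Of the 20 tested genes of PPAR alpha action and fatty acid oxidation, 17 were higher in the treated knockout and 2 in the treated wild type (Cyp4a12a at 0.41 and Fgf21 at 0.13, adjusted p = 0.0458), where 16.3% and 12.3% of all genes were. The median gap was -0.25 against -0.01 over all genes. In controls limma called 7 higher in the knockout and 0 in the wild type (all genes 8.88% and 9.35%), the same counts as at an unadjusted p under 0.05. On the single days 4, 8, 11, 8 and 3 of the 20 were higher in the knockout, where 2.63%, 3.53%, 5.93%, 3.51% and 2.28% of all genes were. Most of these gaps were small: besides Cyp4a14 and Acot1, the largest on the knockout side were Angptl4 (-0.53), a lipase inhibitor, and Acot2 (-0.51).

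Cholesterol synthesis and lipogenesis lay on the knockout side in both arms. Of 18 tested cholesterol synthesis genes, 14 were higher in the treated knockout (all genes 16.3%; median gap -0.45) and 17 in the control knockout (all genes 8.88%; median -0.65), with 0 higher in the wild type in either arm by limma, nor any at an unadjusted p under 0.05. Sqle, which makes squalene epoxide, had a gap of -0.75 (SE 0.13, adjusted p = 8.22e-06) with the drug and -1.55 without it, so its gap was smaller with the drug (change 0.83, 0.00396). Of 18 lipogenesis genes, 12 were higher in the treated and 9 in the control knockout (all genes 16.3% and 8.88%), with a median gap of -0.24 in each arm. Elovl6, a fatty acid elongase, had gaps of -0.84 and -0.85. Pltp, the phospholipid transfer protein, had gaps of -1.10 and -1.12, and Fabp5, a fatty acid binding protein, of -1.30 and -1.18.

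Rdh16f2, a retinol dehydrogenase family member, had a knockout-side gap with the drug and none called in controls. It lay between 9.16 and 10.60 (median 9.81) in treated wild type and between 10.08 and 11.49 (median 10.95) in treated knockout livers. The gap was -1.05 (SE 0.10, adjusted p = 3.26e-12) with the drug and 0.03 without it (0.88), a tested change of -1.06 (9.75e-13). Pde5a, a cyclic GMP phosphodiesterase, had a gap of -0.61 (2.55e-10) with the drug and 0.41 (0.00479) in controls. Serpina7, thyroxine-binding globulin, had a gap of -1.03 (4.98e-08) with the drug and -0.29 in controls (0.187).

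The 5 genes on the knockout side whose treated groups did not overlap were Igfbp2, Perp, Ecm1, Maco1 and Gm13306. Igfbp2, a carrier of insulin-like growth factors, lay between 10.29 and 11.75 (median 11.21) in treated wild type and between 12.05 and 13.13 (median 12.49) in treated knockout livers, a gap of -1.30 (SE 0.08, adjusted p = 5.2e-18) against -0.92 in controls. Perp, a p53 target of cell junctions, had gaps of -0.61 and -0.25. Ecm1, an extracellular matrix protein, had a gap of -0.38 (1.29e-12) with none called in controls (-0.03, 0.737).

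On the wild type side the genes without overlap included some outside drug metabolism. Gna14, a G protein alpha subunit, lay between 6.99 and 8.68 in treated wild type and between 5.06 and 6.12 in treated knockout livers, a gap of 2.42 (SE 0.09, adjusted p = 1.14e-26) against 1.12 in controls. Ccn4, a secreted matrix-associated protein, had a gap of 1.19 (2.06e-16) with none called in controls (-0.10, 0.231). Cpe, a carboxypeptidase of hormone processing, had a gap of 0.95 (3.66e-18), Ginm1 one of 1.06 (7.98e-29) and Pepd, a dipeptidase, one of 0.40 (1.65e-19). Cnmd, which encodes chondromodulin, was 1.30 higher (7.46e-21) with the drug and 0.88 lower (-0.88, 1.12e-09) in wild type controls. Ahr, the dioxin receptor, turned sign as well, with 0.65 (1.66e-11) against -0.28 (0.0479).

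More sex-biased liver genes were higher in treated wild type than in treated knockout livers. Of 13 tested female-biased genes, 7 were higher in the treated wild type and 3 in the treated knockout (all genes 12.3% and 16.3%; median gap 0.27), against 2 and 4 in controls (all genes 9.35% and 8.88%). With the stricter filter on dim genes used above for mitosis genes, 2 were called higher in the treated wild type. On the 5 days 1, 3, 4, 5 and 6 of the 13 were higher in the treated wild type (all genes 4.82%, 3.11%, 2.84%, 2.63% and 1.91%). The 7 included Cyp2b9, Cyp2b13, Sult3a1 and Sult1e1, and the 3 on the knockout side were Fmo2, Acot3 and Abcd2, each also called in controls. Of 14 male-biased genes, 8 were higher in the treated wild type and 0 in the treated knockout (all genes 12.3% and 16.3%; median 0.22), and 6 and 0 in controls by limma (all genes 9.35% and 8.88%), with 0 on the knockout side also at an unadjusted p under 0.05. Ugt2b38 had gaps of 1.23 and 1.21 in the arms. Moxd1, a monooxygenase-like gene, varied between 3.92 and 10.33 among treated wild type livers and between 3.74 and 9.53 among treated knockout livers, so its gap of 2.54 (SE 0.46, adjusted p = 2.58e-05) came with wide overlap.

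**Figure D5:**
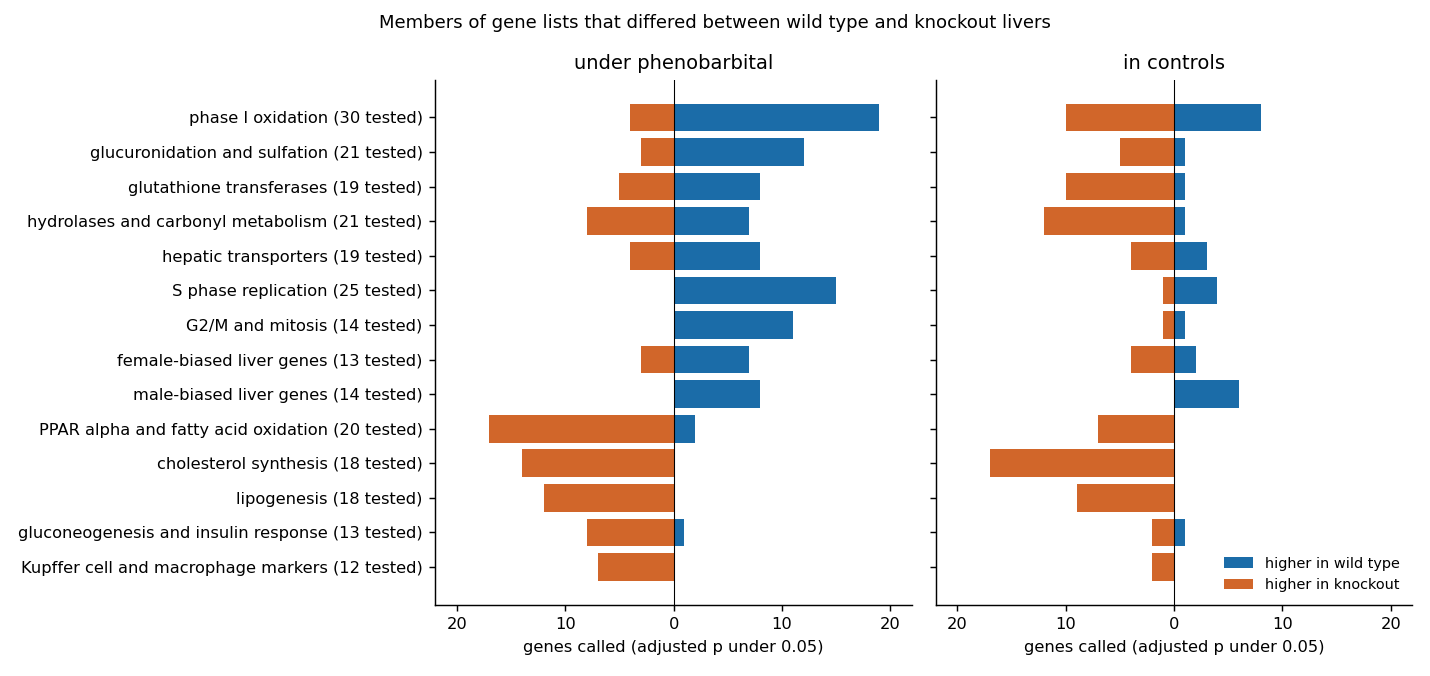
Number of genes of 14 lists with an adjusted p under 0.05 under phenobarbital (left) and in controls (right); bars to the right are higher in the wild type and bars to the left are higher in the knockout, with the number of tested members beside each name. Phase I oxidation has 19 genes on the wild type side with the drug and 8 in controls, and PPAR alpha and fatty acid oxidation has 17 on the knockout side with the drug and 7 in controls.

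Some genes had a called gap in controls and none called with the drug, which does not show that their treated levels were equal. There were 399 genes with a called gap in controls, none called under phenobarbital and a called change. Alas1, the first enzyme of haem synthesis, had a gap of -1.23 in controls (adjusted p = 0.00255), whereas treated wild type livers were at 10.79 ± 0.81 and treated knockout livers at 10.50 ± 0.58 (SD, n = 24 each), a difference within the spread (0.30, adjusted p = 0.255). Ndrg1, a stress-response gene, went from -1.11 to 0.11 (change 1.24, 1.25e-07) and Myc from -1.05 to 0.37 (change 1.45, 0.000236). Ass1, of the urea cycle, went from 0.57 to -0.33 (change -0.91, 0.00336).

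Markers of other cell types moved with the genotype in part. Of 12 macrophage and Kupffer cell markers, 7 were higher in the treated knockout and 0 in the treated wild type, where 16.3% and 12.3% of all genes were. The median gap was -0.18, and controls had 2 and 0 (all genes 8.88% and 9.35%). The mean level of the 12 lay between 7.55 and 8.61 (median 8.06) in treated wild type and between 7.74 and 8.65 (median 8.20) in treated knockout livers, so the ranges overlapped over most of their width. The calls were made on days 7 (4 of 12, all genes 3.53%) and 14 (7 of 12, all genes 5.93%), and on the other days limma called 0. At an unadjusted p under 0.05 limma had 0 on day 1, 1 higher in the knockout on day 28 and 1 higher in the wild type on day 91. Of the markers that define Kupffer cells, Clec4f had a gap of -0.18 (adjusted p = 0.00843), and none was called for Timd4 (-0.13, 0.268) or Cd5l (-0.06, 0.525). Hepatocyte markers were near the top of the scale in all treated livers, at mean levels of 13.70 to 13.88 in the wild type and 13.74 to 13.96 in the knockout. Of these 10 tested genes, 5 were higher in the treated knockout and 1 in the treated wild type (all genes 16.3% and 12.3%), with a median gap of -0.04. After quantile normalization 3 were higher in the treated knockout. Controls had 1 higher in the knockout and 3 in the wild type (all genes 8.88% and 9.35%). Pancreas acinar markers averaged between 5.40 and 9.38 in treated wild type and between 5.23 and 9.04 in treated knockout livers, the highest being wild type animal 2004 and knockout animal 4002, both of day 1. Of these 10 markers 2 were called higher in the treated wild type (all genes 12.3%), and 1 with the stricter filter on dim genes. The part of the macrophage and pancreas markers in the other results was not tested.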

How the data were processed

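Affymetrix mouse arrays measured liver RNA, 1 array per animal. The authors deposited log2 expression values made with RMA, per the submitters' processing notes; the version is not given in the sources used here. Values ran from 2.11 to 15.07, and array medians of the treated livers from 5.159 to 5.231. Arrays give no read depth, so the number of animals (4 or 5 per treated group) limits precision. Of 45101 probe sets, 34945 carry 1 gene symbol, 932 several, 9211 none and 64 are controls; only the first were used. For 18193 genes the probe set with the highest mean over all arrays was kept. The 12622 genes above the array's own median on at least 3 of the 167 arrays of the series were tested.

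limma 3.58.1 in R 4.3.3 fitted genotype with day as a blocking factor (48 treated arrays; 44 control arrays alike), 10 treated group means for single days, and 20 group means over both arms for the change of the gap with the drug. Tests are two-sided with Benjamini-Hochberg adjustment over all genes tested; calls need an adjusted p under 0.05, and a second rule adds a fold of 1.5. The fit was tested on simulated data. Promoter windows were aligned with Biopython 1.88.

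The members and gene lists were chosen with earlier results of these data known, so list counts are given beside the share of all genes called and no list was tested. Genes were named by a rule: the receptors and some known targets, the 12 largest gaps each way with 1 sign on all days, up to 4 called members per list with the largest gaps, the 5 largest changes each way between days and between arms, the largest opposite and control-only gaps, and the 10 measured neighbours on each side of either receptor gene. Genes whose treated groups do not overlap, and a few list members, were added after the values were seen. Alternatives changed the normalization, filters, probe set rule, prior, day term, arrays in the fit and single animals.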

Additional observations from a re-analysis of the deposited data

Results flagged for a closer look

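In 6 of 150 treated groups of 4 or 5 animals, checked over 15 genes, 1 animal stood apart from the rest by Dixon's test, and chance gives about 1 in 20. On day 28 the highest wild type liver was at 13.18 for Cyp2b10 and the highest at 13.22 for Gstm3. On day 1 the highest wild type liver for Cyp2b9 was at 5.56, and on day 14 the highest knockout liver for Cyp4a14 was at 11.90. On day 7 the lowest wild type liver was at 9.19 for Ighm and at 6.80 for Mcm5, the latter 0.87 below the next.

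The gap between the genotypes under phenobarbital changed between day 1 and day 91, and the 5 largest called changes in each direction are given. It grew toward the wild type by 4.87 for Sult3a1, 4.77 for Cyp2b13, 4.35 for Cyp2b9, 2.999 for Dbp and 2.70 for Meg3. The change was toward the knockout, at -1.14 for Aph1b, -1.33 for Osgin1, -1.35 for Ccnd1, -1.45 for Acsm2 and -2.35 for Hspa1b. Those of Dbp, a clock output gene (adjusted p = 0.0245), and Hspa1b, a heat shock gene (0.0464), lay close to the threshold and were lost under some settings.

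The gap also differed between treated and control livers. The change with the drug was 6.33 for Cyp2b10 and 5.71 for Cyp2c65, toward the wild type. Other changes in that direction were 4.24 (Cyp2c55), 2.90 (Sult3a1) and 2.59 (Cyp2b9). Toward the knockout it was -0.94 for Enho, -0.996 for Pde5a, -1.06 for Rdh16f2, -1.07 for Hectd2os and -2.01 for Cyp4a14.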

How the results depend on the processing

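The 203 named genes' gaps under phenobarbital were recomputed with each of the 48 animals left out. In 9582 of these values direction and call stayed the same, in 153 (9 genes) the call was lost, in 9 a call was gained and in 0 the direction turned. Under 10 other settings 1963 stayed, 44 (20 genes) lost the call, 3 gained it and 1 turned: Txnrd1 was at 0.087 (adjusted p = 0.222) with the mean of all probe sets. Leaving out 1 animal moved the number of genes called under phenobarbital between 3390 and 3637, in controls between 2052 and 2443, for the change of the gap with the drug between 1501 and 1744, and for gaps of at least 1.5-fold between 125 and 134. On days 1, 7, 14, 28 and 91 the ranges were 603 (without wild type animal 2002) to 1054, 522 (without knockout animal 4009) to 875, 825 to 1145, 534 to 803 and 398 to 568. The F test of the days ranged from 95 (without wild type animal 2023) to 198 and gave 229 with all arrays in 1 model. Day 91 minus day 1 ranged from 127 (without wild type animal 2023) to 326, with 139, 147 and 150 without animals 2003, 4002 and 4024, and gave 141 without animals 4019 and 4024 together. Under the 10 other settings the number of gaps of at least 1.5-fold ran from 98 to 133. The 98 came with the mean of all probe sets, and the stricter filter on dim genes gave 111. After quantile normalization the split of wild type and knockout calls was 533 to 457 for day 1, 537 to 460 for day 7, 532 to 629 for day 14, 420 to 420 for day 28, 329 to 298 for day 91 and 124 to 99 for day 91 minus day 1. The causes were not tested. The settings for gene lists, for non-overlapping groups and for single genes' daily gaps and changes with the drug were added after seeing the data; those for the counts above were planned. No paired analysis was possible because the labels' animal numbers are not shared between the groups.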

Other observations

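Smaller lists held further named genes. Of 11 interferon response genes 4 were higher in treated wild type livers by limma, where 12.3% of all genes were, among them Rsad2 (0.51, adjusted p = 2.01e-07) and Usp18 (0.43, 0.000922), both antiviral response genes. Of 18 perivenous and Wnt-related genes 3 were higher in the treated wild type and 7 in the treated knockout (all genes 12.3% and 16.3%). Controls already had 0 and 6 (all genes 9.35% and 8.88%). Glul, the glutamine synthetase of cells around the central vein, lay between 11.79 and 12.32 (median 12.17) in treated wild type and between 12.26 and 12.49 (median 12.36) in treated knockout livers, a gap of -0.25 (3.08e-08). Oat, ornithine aminotransferase, and Nt5e, an ectonucleotidase, were also higher in the knockout. Of 11 periportal genes 1 was higher in the treated wild type and 5 in the treated knockout (all genes 12.3% and 16.3%), so the first count is near the share of all genes. In controls 6 and 1 were (all genes 9.35% and 8.88%).

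Of 13 genes of gluconeogenesis and insulin response 8 were higher in the treated knockout and 1 in the treated wild type (all genes 16.3% and 12.3%), with a median gap of -0.13. Stellate cell markers split, with 3 collagen genes (Col1a1, Col1a2 and Col3a1) higher in the treated wild type and 4 of the 10 genes higher in the treated knockout (all genes 12.3% and 16.3%). Among the latter Lrat, which stores vitamin A as its ester, had a gap of -0.63 (5.28e-05) with the drug and 0.04 in controls (0.879). Ighm, the heavy chain of immunoglobulin M, was higher in the treated wild type by 1.00 (SE 0.19, 6.08e-05) with the probe set used. Another of its 11 probe sets gave 1.02 and the other 9 lay between -0.15 and 0.06. Jchain, which joins immunoglobulin M and A chains, was lower in the treated wild type (-0.71, 8.92e-06). Of 9 tested endothelial markers 1 was higher in the treated wild type and 2 in the treated knockout (all genes 12.3% and 16.3%). Their median gap was -0.09, and at an unadjusted p under 0.05 by limma 1 and 6 were. In controls limma called 1 and 0 (all genes 9.35% and 8.88%). The 1 on the wild type side was Lyve1, a marker of sinusoidal endothelium. It had a gap of 0.73 (1.32e-08) with the drug and 0.31 (0.0444) in controls.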
